A study of Mus musculus with 6 samples.

Results

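Genes of the ephrin, semaphorin, plexin and related guidance families were taken from the RNA-seq table of mouse embryo fibroblasts (MEFs) by their symbols alone, which gave 68 of the 29955 genes listed. They were 8 ephrin ligands, 14 Eph receptors, 20 semaphorins, 9 plexins, 2 neuropilins, 3 Slits, 4 Robos, 4 netrins and 4 Unc5 receptors. The symbol rule used no expression value, although the families were chosen with earlier results of these data known. The members lay on 19 different chromosomes.

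These families are the classical cues that tell growing axons and migrating cells where to go. Semaphorins signal through plexins, with neuropilins as co-receptors for most secreted class 3 semaphorins, while Slits act on Robo receptors and netrins on Dcc, neogenin and Unc5 receptors. Ephrins are tethered to the cell surface and signal in both directions when they meet an Eph receptor tyrosine kinase on a neighboring cell, and fibroblasts, which move and contact one another, use several of these systems too.

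RNA-seq was carried out on 3 libraries of Rnf40+/+ MEFs and 3 libraries of Rnf40-/- MEFs, all from primary cells at passage 3. Rnf40 encodes an E3 ligase subunit that monoubiquitinates histone H2B. The knockout cells came from Rnf40 loxP/loxP embryos that carried a ubiquitously expressed, tamoxifen-inducible Cre (Rosa26-CreERT2). They were exposed to 250 nM 4-hydroxytamoxifen (4-OHT) for 5 days and then grown for 3 days in its absence, which removes exons 3 and 4 of Rnf40. The paper describes MEFs only from embryos homozygous for the floxed allele that carried the Cre. It does not say separately which embryos gave the Rnf40+/+ cells or whether these cells received 4-OHT. Deletion, Cre activity and drug exposure therefore cannot be told apart. The labels do not say whether the 3 libraries of a genotype came from separate embryos or cultures, and the p-values measure only the spread between these libraries.

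The values are normalized counts, that is reads per gene divided by a size factor for each library. The libraries held between 17053436 and 26344170 reads on genes, and 3 reads, taken as the limit of detection, corresponded to between 2.40 and 3.58 normalized counts. Rnf40 itself had 1278, 1195 and 1096 normalized counts in Rnf40+/+ and 439, 519 and 487 in Rnf40-/- MEFs, and the remaining level was 40.5% of that in Rnf40+/+. This count covers the whole gene and can include reads from exons other than the deleted exons 3 and 4. It therefore does not measure intact Rnf40, and by western blot the paper reports an effective deletion with loss of H2Bub1. Of 12 fibroblast markers, 10 were lower and 0 higher in Rnf40-/- MEFs, and their summed level ranged from 426883 to 489816 in Rnf40+/+ and from 238746 to 253640 in Rnf40-/- libraries. Macrophage markers (11 genes, 10 tested, 2 higher and 3 lower) summed to between 5940.1 and 10113 in Rnf40+/+ and between 3874 and 4291 in Rnf40-/- libraries, most of it Lyz2. Endothelial markers (9 genes, 7 tested, 3 higher and 1 lower) summed to between 159.7 and 290.2 against between 260.0 and 366. Neural markers (11 genes, 5 tested, 1 higher) summed to between 546 and 688 against between 829 and 893, epithelial markers (9 genes, 4 tested, 1 higher) to between 42.8 and 113 against between 61.4 and 87.7, and muscle markers (8 genes, 2 tested, 1 lower, Myod1 at 0 reads) to between 144 and 1462 against between 68.9 and 77.5. The highest muscle sum was that of Rnf40+/+ library 1, where Actc1 had 937 and Des 431 normalized counts. Rnf40+/+ libraries 2 and 3 had 10.2 and 7.99 of Actc1 and 126 and 114 of Des. The part of these other cells in the results below was not tested.

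Of the 68 members, 60 had enough reads to be tested and 36 of these passed an adjusted p of 0.05 in limma, with 22 higher and 14 lower in Rnf40-/- MEFs. This was 60% of the members tested (36.7% higher and 23.3% lower), beside a background of 47.4% of the 16378 genes tested (23.3% higher and 24.1% lower), so that the share of lower members was near the background and that of higher members above it. The median log2 fold change (Rnf40-/- minus Rnf40+/+, on the log2 scale of normalized count + 1) was -0.01 over the members and -0.0035 over all genes tested. In 23 members every Rnf40-/- library lay above every Rnf40+/+ library and in 17 the reverse held, beside 27.8% and 28.7% of all genes (56.5% for both together). The study's own criteria were a mean above 15, an absolute log2 fold change above 1 and an unadjusted p under 0.05. By these, 7 members were higher and 2 lower, where the background was 4.25% and 5.70% of all genes. The counts by family below are to be read beside these shares of all genes tested. In these bulk libraries fewer cells of a type and less RNA per cell cannot be told apart.

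**Figure D1:**
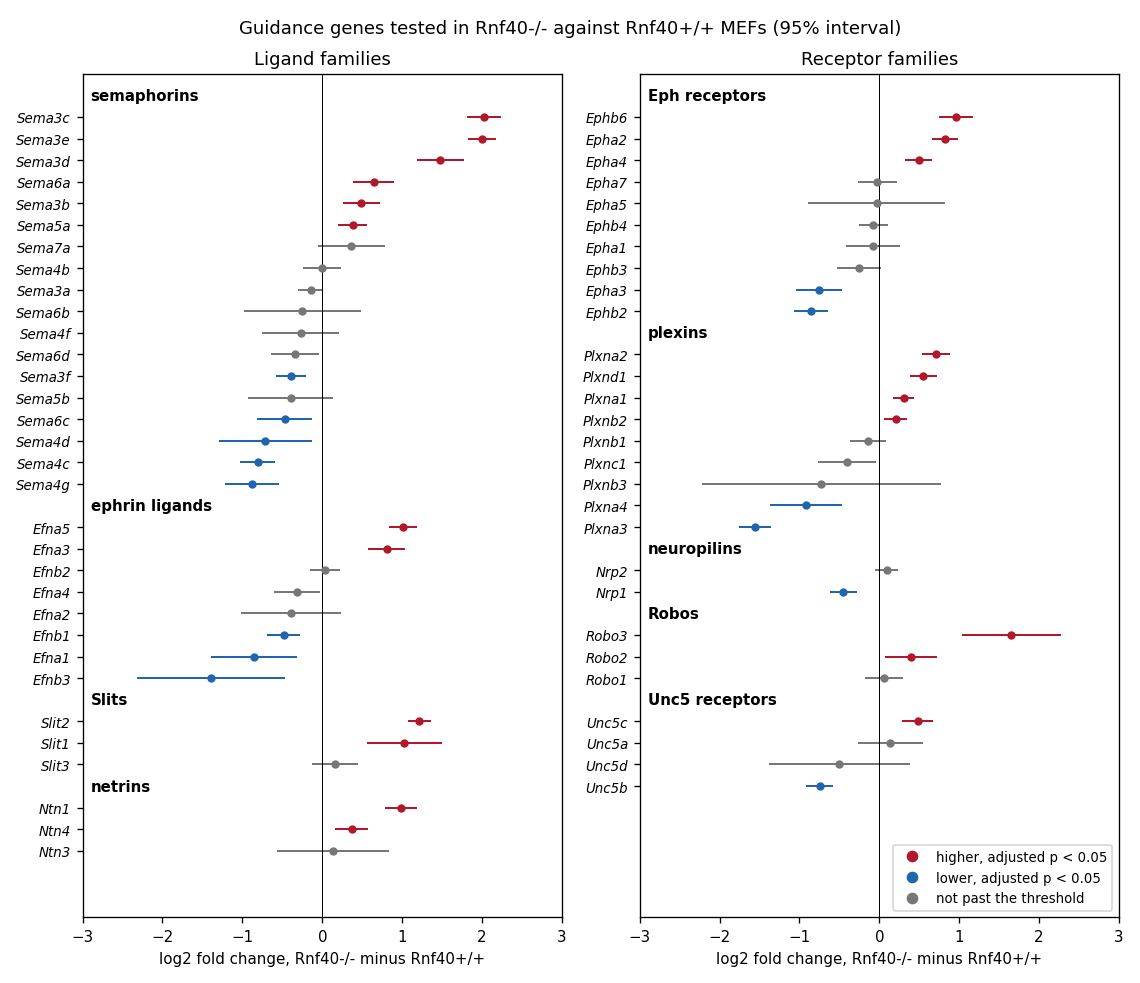
Log2 fold change (x axis, Rnf40-/- minus Rnf40+/+) of the 60 members tested, by family, with the 95% interval as a bar and 3 libraries per genotype. Sema3c (2.03), Sema3e (2.0) and Robo3 (1.65) lie farthest to the right, and Plxna3 (-1.56) and Efnb3 (-1.40) farthest to the left.

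The semaphorins with the largest changes were secreted class 3 members. Of 6 class 3 semaphorins tested, Sema3b, Sema3c, Sema3d and Sema3e were higher, Sema3f was lower and Sema3a did not pass the test, and the median log2 fold change was 0.98. Sema3c, a ligand of neuropilin-plexin receptors best known from the cardiac outflow tract, was measured at 2236, 2458 and 1797 normalized counts in Rnf40+/+ and at 8629, 8839.7 and 8759 in Rnf40-/- MEFs. The genotypes were far apart and the Rnf40-/- libraries lay close together, with a log2 fold change of 2.03 (SE 0.10, adjusted p = 3.09e-08). Sema3e, which differs from its relatives in binding Plxnd1 without a neuropilin, was measured at 485, 409 and 446 in Rnf40+/+ and at 1777, 1808 and 1768 in Rnf40-/- MEFs. No library of one genotype came near the other, and the log2 fold change was 2.0 (SE 0.08, adjusted p = 7.95e-09). For Sema3d, which acts on endothelial and neural crest cells, values were 149, 199 and 146 in Rnf40+/+ and 468, 485 and 418 in Rnf40-/- MEFs. It was thus higher in all Rnf40-/- libraries at a lower level than Sema3c per kb of transcript, with a log2 fold change of 1.48 (SE 0.13, adjusted p = 3.73e-06).

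Sema3a, the prototype repellent that collapses axonal growth cones, had a mean of 419 normalized counts per kb of transcript in Rnf40+/+ MEFs. This was the highest mean of the semaphorins there, but Sema3c followed at 394 and the SDs of both overlapped. Its libraries held 2606, 2576 and 2271 normalized counts in Rnf40+/+ and 2267, 2319 and 2137 in Rnf40-/- MEFs. The genotypes overlapped, and the log2 fold change of -0.15 (95% interval -0.30 to 0.01) did not pass the test (adjusted p = 0.114), although it did without Rnf40+/+ library 3 (log2 fold change -0.21, adjusted p = 0.0182). Sema3b and Sema3f, both first described as products of a tumor suppressor region, moved in opposite directions, with log2 fold changes of 0.49 (SE 0.10, adjusted p = 0.0023) and -0.39 (SE 0.08, adjusted p = 0.00244). Sema3g was not tested, with at most 4 reads in any library.

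**Figure D2:**
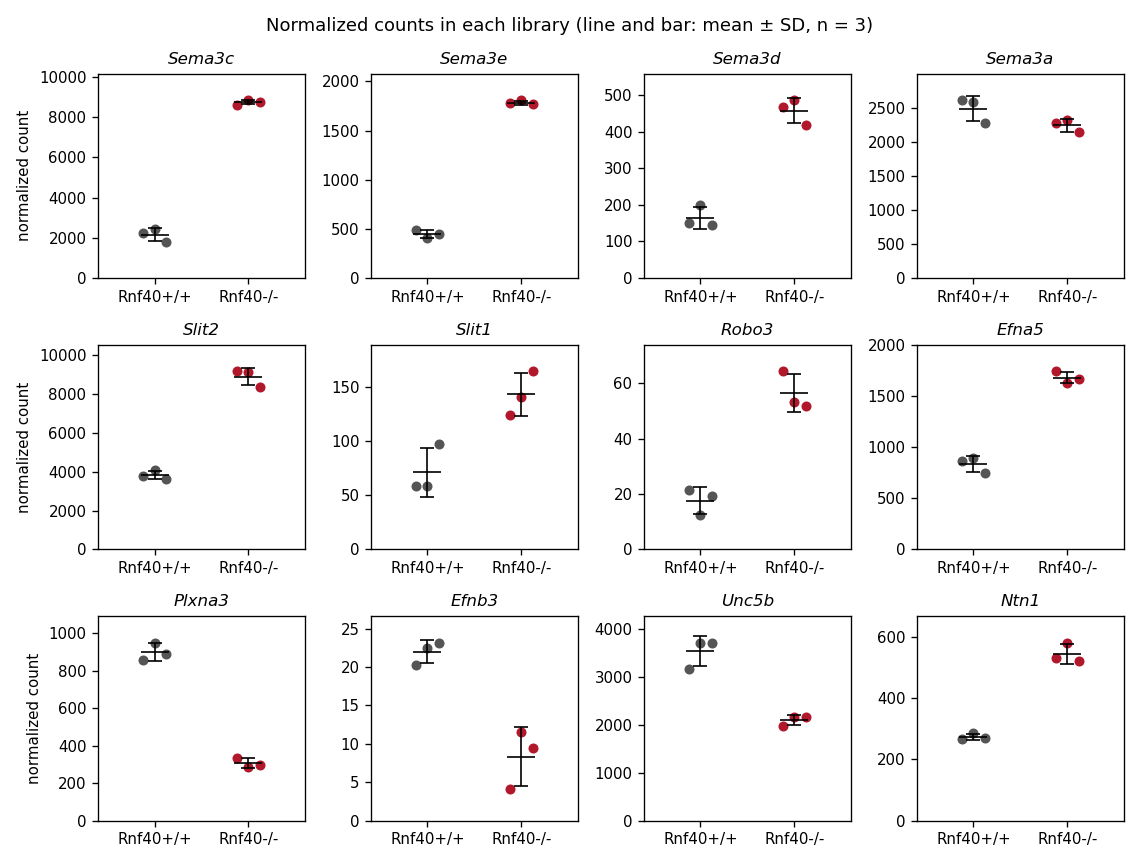
Normalized counts (y axis, from 0) of 12 members in each of the 3 Rnf40+/+ and 3 Rnf40-/- libraries, with the mean and SD as a line and bar. The genotypes do not overlap in any panel except that of Sema3a, where Rnf40-/- values between 2137 and 2319 meet a Rnf40+/+ value of 2271.

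The make-up of the class 3 semaphorins differed between the genotypes. Their summed level per kb was 1232 ± 96.1 (SD, n = 3) in Rnf40+/+ and 2608 ± 24.4 (SD, n = 3) in Rnf40-/- MEFs, 2.12 times as high. Sema3c made up 31.9% ± 2.83 of this sum in Rnf40+/+ and 61.1% ± 0.54 in Rnf40-/- MEFs, and Sema3a 34.0% ± 0.19 and 14.5% ± 0.50 (SD, n = 3 each). Within a library, the log2 ratio of Sema3c to Sema3a normalized counts was -0.22, -0.07 and -0.34 in Rnf40+/+ and 1.93, 1.93 and 2.04 in Rnf40-/- MEFs. This ratio does not depend on the size factors, and the pair was chosen after its values were seen, so no test is given.

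Sema3c, Sema3d, Sema3e and Sema3a lie on the same strand of 1 stretch of chromosome 5. In mm9, Sema3d (ENSMUSG00000040254) spans chr5:12383166-12588943, Sema3a (ENSMUSG00000028883) chr5:13125593-13602565, Sema3e (ENSMUSG00000063531) chr5:14025276-14256689 and Sema3c (ENSMUSG00000028780) chr5:17080099-17236086, all on the plus strand. These are whole gene spans, from the transcription start to the end of the last exon. The 4.85 Mb from the start of Sema3d to the end of Sema3c held 15 genes of the table, of which 8 were tested. Among the 4 that were no members, Cacna2d1, a calcium channel subunit, was higher with a log2 fold change of 0.20 (adjusted p = 0.0323), while Pclo (0.49, adjusted p = 0.133) and Hgf (-0.67, adjusted p = 0.0621) did not pass the test. Speer3 was also higher (2.16, adjusted p = 0.000734) but belongs to a multicopy family whose reads may be shared, so its value is uncertain. Beyond Sema3c, Cd36 (1.44, adjusted p = 1.81e-05) and Gnai1 (1.03, adjusted p = 1.37e-05) were higher too. Sema3a, between Sema3d and Sema3e, was therefore flanked on both sides by genes that were higher.

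**Figure D3:**
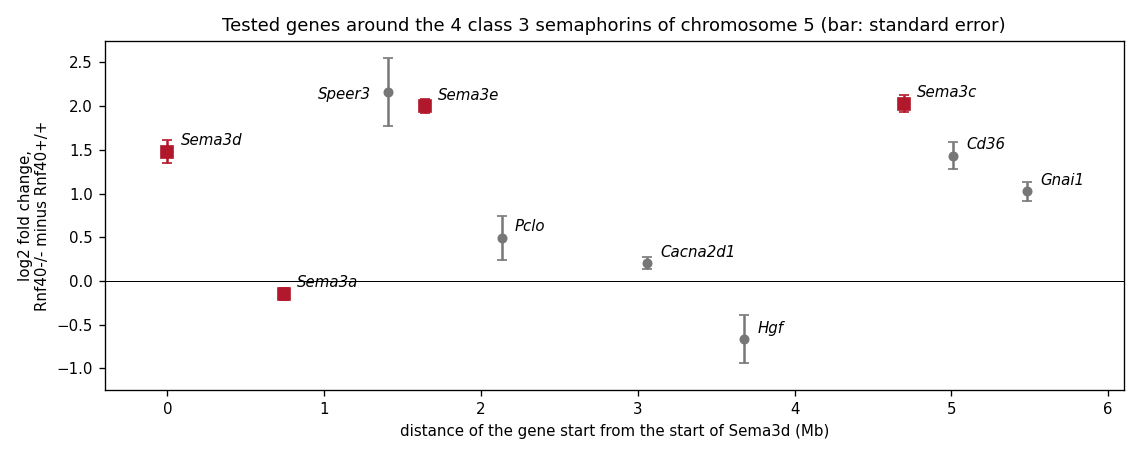
Log2 fold change (y axis, with the standard error as a bar) of each tested gene around the class 3 semaphorins of chromosome 5, by the distance of its start from that of Sema3d in Mb (x axis). The start is the lower coordinate for genes on the plus strand and the upper one for Cd36 and Gnai1 on the minus strand. Squares are the members and circles the other genes, and Sema3a (-0.15) lies at 0.74 Mb between Sema3d at 0 Mb (1.48) and Sema3e at 1.64 Mb (2.0).

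The promoters of the 3 class 3 semaphorins that were higher on chromosome 5, and of Slit2, which was higher farther along that chromosome, are shown. They were picked after their values were seen. The other members on chromosome 5, Sema3a (-0.15), Epha5 (-0.03) and Ephb4 (-0.08), did not pass the test. The sequences are from RefSeq (GRCm38.p6, a later build than the mm9 of the gene spans) and run from 250 bases before to 50 bases after the transcription start. CG dinucleotides, the sites of DNA methylation in mammals, are in capitals.
Sema3d, chr5:12382916-12383215, plus strand: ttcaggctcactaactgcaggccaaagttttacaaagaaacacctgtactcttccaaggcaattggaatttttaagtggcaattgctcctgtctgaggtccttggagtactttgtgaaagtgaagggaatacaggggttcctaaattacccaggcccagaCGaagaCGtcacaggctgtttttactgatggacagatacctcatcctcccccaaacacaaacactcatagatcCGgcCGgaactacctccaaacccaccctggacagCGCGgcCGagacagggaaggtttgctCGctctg
Sema3e, chr5:14025026-14025325, plus strand: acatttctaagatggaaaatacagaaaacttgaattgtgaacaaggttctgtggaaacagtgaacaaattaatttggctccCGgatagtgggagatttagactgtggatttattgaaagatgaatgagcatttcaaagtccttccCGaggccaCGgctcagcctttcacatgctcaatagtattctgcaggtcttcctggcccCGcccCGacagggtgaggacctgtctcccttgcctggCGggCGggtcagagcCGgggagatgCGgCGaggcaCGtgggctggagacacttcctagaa
Sema3c, chr5:17574566-17574865, plus strand: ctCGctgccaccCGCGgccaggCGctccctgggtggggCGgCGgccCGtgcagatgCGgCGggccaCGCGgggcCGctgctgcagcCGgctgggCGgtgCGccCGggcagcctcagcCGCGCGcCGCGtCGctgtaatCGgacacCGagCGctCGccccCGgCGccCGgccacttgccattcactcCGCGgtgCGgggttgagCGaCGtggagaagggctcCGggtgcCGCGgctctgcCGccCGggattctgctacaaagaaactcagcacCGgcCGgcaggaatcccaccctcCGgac
Slit2, chr5:47982905-47983204, plus strand: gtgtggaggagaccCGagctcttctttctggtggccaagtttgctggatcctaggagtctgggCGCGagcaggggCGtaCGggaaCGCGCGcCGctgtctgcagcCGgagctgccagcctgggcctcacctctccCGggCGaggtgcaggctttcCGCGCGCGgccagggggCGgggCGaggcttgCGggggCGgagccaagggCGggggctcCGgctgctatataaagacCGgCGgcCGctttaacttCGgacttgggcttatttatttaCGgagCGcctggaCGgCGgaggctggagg
The promoters were unlike in base composition. That of Sema3d held 8 CG dinucleotides and that of Sema3e 11, against a median of 7 over all 32851 RefSeq promoters of the same length, whereas that of Slit2 held 30 and that of Sema3c 42, more than 97.0% of all promoters. For the 59 members with a promoter listed, only the first one of each gene was taken. The 32851 promoters can hold more than 1 per gene and were not limited to genes tested. Values of the members and of all promoters are thus not like for like, and differences between them were not tested. Over the 59 members the median was 22 CG, with 23 in those that were higher (n = 17), 19 in those that were lower (n = 11) and 26 in those tested without a call (n = 23). Of 4 motifs searched on both strands, GGGCGG (the GC box) was found in 72.9% of the members' promoters and 35.7% of all promoters, and in those of Sema3e, Sema3c and Slit2. CCAAT was found in 27.1% of the members' and 37.4% of all promoters, Sema3d among them. TATAAA stood in 13.6% of all promoters but only in those of Efnb2 and Slit2 among the members, in Slit2 beginning at position -28 from the start. TGTTTAC (a core forkhead motif) stood in 3.65% of all promoters and in 0 of the members', and none of these motifs contains another. The paper reports forkhead motifs enriched in distal enhancers of upregulated genes, and enhancers were not searched here. These promoter values therefore say nothing about forkhead binding there.

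The membrane-bound semaphorins changed less. Of 12 members of classes 4 to 7 tested, 2 were higher (Sema6a and Sema5a), 4 were lower (Sema4c, Sema4d, Sema4g and Sema6c) and 6 did not pass the test, with a median log2 fold change of -0.31. The share called was 50%, near the 47.4% of all genes tested. Sema6a, a ligand of Plxna2 and Plxna4, had a log2 fold change of 0.64 (SE 0.12, adjusted p = 0.000815), and Sema5a, whose extracellular part carries thrombospondin repeats, one of 0.38 (SE 0.08, adjusted p = 0.00248). Sema4g (-0.88, SE 0.16, adjusted p = 0.000671) and Sema4c (-0.81, SE 0.10, adjusted p = 3.92e-05) fell most. Sema4c is a ligand of Plxnb2, and its libraries held between 504 and 569 normalized counts in Rnf40+/+ and between 291 and 339 in Rnf40-/- MEFs, with no overlap. Sema4d, the ligand of Plxnb1 (-0.71, adjusted p = 0.0456), and Sema6c (-0.47, adjusted p = 0.0288) passed the test by less. Sema4d lost its call without Rnf40+/+ library 1 or 2 or any of the Rnf40-/- libraries (adjusted p from 0.0649 to 0.189), and Sema6c without Rnf40+/+ library 2 or Rnf40-/- library 1 or 2 (adjusted p from 0.0803 to 0.0869).

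Sema4b, Sema4f, Sema5b, Sema6b, Sema6d and Sema7a did not pass the test, and Sema4a was not tested. Sema7a, a GPI-anchored semaphorin that binds Plxnc1 and integrins, was measured at 561, 299 and 303 in Rnf40+/+ and at 459, 485 and 489 in Rnf40-/- MEFs. Only Rnf40+/+ library 1 stood above the Rnf40-/- libraries. The log2 fold change was 0.36 (adjusted p = 0.143) with all libraries and 0.66 (adjusted p = 0.000168) without that one. Sema6d (-0.34, adjusted p = 0.0585) passed the threshold without Rnf40-/- library 3 (-0.44, adjusted p = 0.0366).

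The plexins, the receptors of these ligands, divided by member. Of 9 tested, Plxna1, Plxna2, Plxnb2 and Plxnd1 were higher, Plxna3 and Plxna4 were lower and 3 did not pass the test. Plxna3, which pairs with neuropilins to receive class 3 semaphorins, had 856, 948 and 888 normalized counts in Rnf40+/+ and 334, 284 and 296 in Rnf40-/- MEFs. This was the lowest log2 fold change of all members tested, at -1.56 (SE 0.09, adjusted p = 1.39e-07), and the genotypes did not overlap. Plxna4 (-0.92, SE 0.21, adjusted p = 0.0031) went the same way at a low level. Plxna2 (0.71, SE 0.08, adjusted p = 1.64e-05), Plxnd1 (0.55, SE 0.08, adjusted p = 0.000126) and Plxna1 (0.31, SE 0.06, adjusted p = 0.00136) were higher, so that close relatives within class A moved in opposite directions. The log2 ratio of Plxna3 to Plxna1 normalized counts was -3.07, -2.99 and -3.07 in Rnf40+/+ and -4.80, -5.04 and -4.90 in Rnf40-/- libraries (a pair chosen after its values were seen).

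Plxnb2, the receptor of Sema4c, had the highest level per kb of all members in Rnf40+/+ MEFs (1358) and one of 1566 in Rnf40-/- MEFs. Its normalized counts were 8350.1, 9219 and 8914 in Rnf40+/+ and 10039.6, 9891 and 10591 in Rnf40-/- libraries. They did not overlap, but the difference was small, with a log2 fold change of 0.21 (SE 0.07, adjusted p = 0.0216). The call was lost without Rnf40+/+ library 1 (0.17, adjusted p = 0.082), Rnf40-/- library 1 (0.21, adjusted p = 0.0715) or Rnf40-/- library 3 (0.18, adjusted p = 0.0817). Plxnb1 (-0.14), Plxnb3 (-0.72) and Plxnc1 (-0.41) did not pass the test, and Plxnc1 did so without Rnf40+/+ library 2 (-0.50, adjusted p = 0.0457). Plxnb3 varied from 4.08 to 45.4 normalized counts among the Rnf40+/+ libraries alone.

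Nrp1, the co-receptor of Sema3a and also of Vegfa, had 7796, 7948 and 6538 normalized counts in Rnf40+/+ and 5512, 5453 and 5276 in Rnf40-/- MEFs. It was lower in every Rnf40-/- library, with a log2 fold change of -0.45 (SE 0.08, adjusted p = 0.00053). Nrp2, the co-receptor preferred by Sema3f, did not pass the test (0.09, 95% interval -0.06 to 0.24, adjusted p = 0.295). At the level of whole families per kb, semaphorins summed to 1809 ± 109 in Rnf40+/+ and 3150 ± 17.3 in Rnf40-/- MEFs, neuropilins to 1498 ± 144 and 1173 ± 27.3 and plexins to 2558 ± 90.4 and 2952 ± 27.8 (SD, n = 3). No test was made on these sums.

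Slits are large secreted proteins that repel axons and dampen cell migration through Robo receptors. Of the 3 Slits, Slit1 and Slit2 were higher and Slit3 did not pass the test. Slit2 (ENSMUSG00000031558, chr5:48374394-48697521 of mm9, plus strand), whose promoter is shown with those of the semaphorins, had 3777, 4072 and 3639 normalized counts in Rnf40+/+ and 9165, 9152 and 8381 in Rnf40-/- MEFs. The genotypes were well separated, with a log2 fold change of 1.22 (SE 0.07, adjusted p = 8.95e-08). Slit1, which is mainly known from the nervous system, was far less abundant, with 58.5, 58.1 and 97.4 in Rnf40+/+ and 124, 141 and 164 in Rnf40-/- MEFs. All Rnf40-/- libraries were higher, with a log2 fold change of 1.03 (SE 0.22, adjusted p = 0.00207).

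Slit3 had the highest level per kb of the Slits in Rnf40+/+ MEFs, with 3722, 4265 and 5953 normalized counts, against 5286, 5199 and 4794 in Rnf40-/- MEFs. The Rnf40+/+ libraries spread over the whole Rnf40-/- range, and the log2 fold change was 0.16 (95% interval -0.13 to 0.45, adjusted p = 0.347). Without Rnf40+/+ library 3 it was 0.35 (adjusted p = 0.00139). The share of Slit2 in the summed Slit level per kb was 39.4%, 38.0% and 28.1% in Rnf40+/+ and 52.4%, 52.7% and 52.4% in Rnf40-/- libraries, where it exceeded the share of Slit3 in every library. Mir218-1 and Mir218-2 lie within Slit2 and Slit3 but were not distinguished here, as they had a mean of under 1 normalized count.

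The Robo receptors were expressed at low levels per kb compared with the Slits, with a summed level of 66.3 ± 4.54 in Rnf40+/+ and 81.5 ± 6.29 in Rnf40-/- MEFs (SD, n = 3). Robo3, known for steering commissural axons across the midline, had 21.5, 12.2 and 19.2 normalized counts in Rnf40+/+ and 64.2, 53.2 and 51.9 in Rnf40-/- MEFs. It was higher in all Rnf40-/- libraries, with a log2 fold change of 1.65 (SE 0.29, adjusted p = 0.000543). Robo1, with the highest level per kb of the Robos, had 358, 374 and 320.2 in Rnf40+/+ and 351, 408 and 337 in Rnf40-/- MEFs. These values overlapped, and the log2 fold change of 0.06 had a 95% interval from -0.18 to 0.29 (adjusted p = 0.701). Robo2 was higher by 0.40 (SE 0.15, adjusted p = 0.045), a call lost without Rnf40+/+ library 2 or 3 or Rnf40-/- library 2 or 3 (adjusted p from 0.0782 to 0.172). Robo4, the endothelial Robo, was not tested, with at most 5 reads in any library, while the endothelial markers Pecam1 (2.58, adjusted p = 0.000484), Cdh5 (3.26, adjusted p = 0.000295) and Kdr (1.56, adjusted p = 0.000705) were higher and Emcn (-1.15, adjusted p = 0.0023) was lower in Rnf40-/- MEFs. Pecam1 and Cdh5 had means of 3.75 and 2.76 normalized counts in Rnf40+/+, near the limit of detection, and 27.6 and 31.6 in Rnf40-/- MEFs. The size of their fold changes is therefore uncertain.

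**Figure D4:**
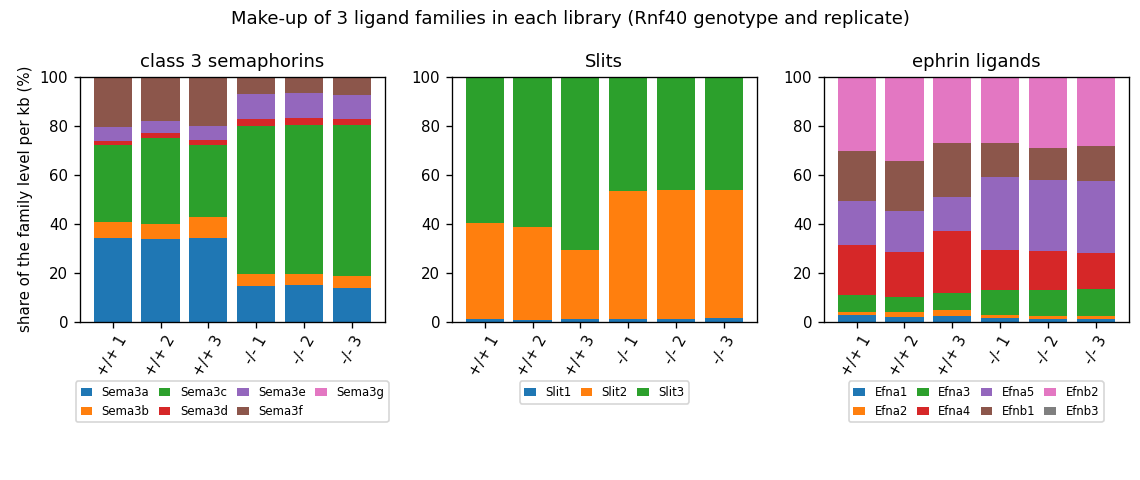
Share (y axis, %) of each gene in the summed level per kb of the class 3 semaphorins, the Slits and the ephrin ligands, as stacked bars for the 3 Rnf40+/+ and 3 Rnf40-/- libraries. Sema3c takes 61.1% on average in Rnf40-/- against 31.9% in Rnf40+/+ libraries, Slit2 52.5% against 35.2% and Efna5 29.4% against 16.1%.

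Netrins are laminin-related proteins that attract or repel cells depending on the receptor. Ntn1 was higher in Rnf40-/- MEFs, with 266, 285 and 269 normalized counts in Rnf40+/+ and 530.2, 580.3 and 519 in Rnf40-/- libraries. The log2 fold change was 0.99 (SE 0.09, adjusted p = 5.02e-06). Ntn4, which binds laminins and had the highest netrin level per kb, was measured at 682, 713 and 566 in Rnf40+/+ and at 823, 834 and 861 in Rnf40-/- MEFs. It was higher without overlap by a log2 fold change of 0.37 (SE 0.09, adjusted p = 0.00641), and its gene span shares 464 bases with that of Gm8580 on the opposite strand. Ntn3 did not pass the test (0.13, adjusted p = 0.767) and shares 1715 bases with Tbc1d24 on the same strand, so its reads are uncertain. Ntn5 was not tested.

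The dependence receptor Unc5b, which mediates repulsion by netrin, was the main Unc5 receptor. It had 3174, 3718 and 3715 normalized counts in Rnf40+/+ and 1982, 2165 and 2168 in Rnf40-/- MEFs. It was lower in every Rnf40-/- library, with a log2 fold change of -0.75 (SE 0.08, adjusted p = 9.85e-06), whereas Unc5c was higher (0.48, SE 0.09, adjusted p = 0.000778). Unc5a (0.14, adjusted p = 0.573) and Unc5d (-0.50, adjusted p = 0.335) did not pass the test. Among the other netrin receptors Dcc was higher at a low level (0.94, SE 0.24, adjusted p = 0.00702), and neogenin (Neo1) was higher by 0.19 (SE 0.07, adjusted p = 0.0424). The log2 ratio of Ntn1 to Unc5b normalized counts was -3.58, -3.71 and -3.79 in Rnf40+/+ and -1.90, -1.90 and -2.06 in Rnf40-/- libraries, again a pair chosen after its values were seen.

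Among the ephrin ligands, of which the A class is held by a lipid anchor and the B class spans the membrane, 2 were higher, 3 lower and 3 did not pass the test. Efna5 (ENSMUSG00000048915, chr17:62953533-63230666 of mm9, minus strand) had 866, 894 and 748 normalized counts in Rnf40+/+ and 1744, 1634 and 1671 in Rnf40-/- MEFs. It was higher in all Rnf40-/- libraries, with a log2 fold change of 1.01 (SE 0.08, adjusted p = 1.3e-06). By qRT-PCR the paper also reports Efna5 upregulated after Rnf40 deletion, an effect blocked by siRNA against the forkhead factor Foxl2. That part was not tested here. Efna3 was higher as well (0.81, SE 0.11, adjusted p = 7.49e-05), while its neighbor Efna1 was lower (-0.85, SE 0.25, adjusted p = 0.0131). Efna1, Efna3 and Efna4 lie side by side on the minus strand of chromosome 3 (chr3:89075655-89085064, chr3:89117821-89126887 and chr3:89137312-89141950 of mm9). Efna4 did not pass the test (-0.32, adjusted p = 0.0627) but did so without Rnf40+/+ library 1 (-0.40, adjusted p = 0.0312) or 2 (-0.41, adjusted p = 0.0461), so 1 stretch of chromosome held members with either direction.

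Of the B class, Efnb1 was lower (-0.48, SE 0.09, adjusted p = 0.00124). Efnb3 had 20.3, 22.4 and 23.2 normalized counts in Rnf40+/+ and 4.08, 11.5 and 9.44 in Rnf40-/- MEFs, all near the lower end of what could be tested. The genotypes did not overlap, and the log2 fold change was -1.40 (SE 0.42, adjusted p = 0.0173), but the call was lost without Rnf40+/+ library 2 (-1.38, adjusted p = 0.0506) or Rnf40-/- library 1 (-1.01, adjusted p = 0.0652). Efnb2, with the highest level per kb of the ephrins in Rnf40+/+ MEFs, had 1554, 1954 and 1568 in Rnf40+/+ and 1683, 1748 and 1738 in Rnf40-/- MEFs. Here the Rnf40-/- libraries lay within the range of the Rnf40+/+ libraries, with a log2 fold change of 0.03 (95% interval -0.16 to 0.23, adjusted p = 0.772). Efna2 (-0.39, adjusted p = 0.29) did not pass the test.

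Of 10 Eph receptors tested, 3 were higher, 2 were lower and 5 did not pass the test, and 0 met the criteria of the study. The share called was 50%, near the 47.4% of all genes tested, of which 9.95% met the criteria of the study. Epha2, which had the highest level per kb of the Eph receptors, was measured at 1955, 1953 and 1661 in Rnf40+/+ and at 3342, 3196 and 3247 in Rnf40-/- MEFs. It was well above Rnf40+/+ in every Rnf40-/- library, with a log2 fold change of 0.82 (SE 0.07, adjusted p = 3.81e-06). Ephb6, an Eph receptor without kinase activity (0.96, SE 0.10, adjusted p = 1.03e-05), and Epha4, which binds ephrins of both classes (0.49, SE 0.08, adjusted p = 0.000232), were also higher. Ephb2 (-0.85, SE 0.10, adjusted p = 1.92e-05) and Epha3, a high-affinity receptor of Efna5 (-0.76, SE 0.13, adjusted p = 0.000555), were lower.

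Epha1, Epha5, Epha7, Ephb3 and Ephb4 did not pass the test, and the last of these, the partner of Efnb2, had a log2 fold change of -0.08 (95% interval -0.26 to 0.10). Ephb3 (-0.25, adjusted p = 0.125) passed the threshold without Rnf40+/+ library 1 (-0.34, adjusted p = 0.0477). The gene span of Epha1 shares 1660 bases with that of the far more abundant Zyx on the opposite strand (mean of 9391 normalized counts). How much of this stretch is exon was not measured. Since it is not stated whether the counting used strand, the value of Epha1 is uncertain. Epha6, Epha8, Epha10 and Ephb1 were not tested, with at most 4 reads in any library, and Epha10 had 0 reads in all 6 libraries, which allows up to 3.58 normalized counts in the shallowest of them.

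Ligands and receptors were also counted apart. Of 32 ligands tested 12 were higher (37.5%) and 8 lower (25%), and of 28 receptors 10 were higher (35.7%) and 6 lower (21.4%). Among all genes tested 23.3% were higher and 24.1% lower. By the criteria of the study 6 ligands (18.8%) and 1 receptor (Robo3, 3.57%) were higher, and 1 of each was lower (3.1% and 3.57%). The background was 4.25% higher and 5.70% lower, so the receptor shares did not exceed it. The difference between the counts of ligands and receptors was not tested. On the scale of mean normalized counts per kb of transcript, Sema3c went from 394 in Rnf40+/+ to 1592 in Rnf40-/- MEFs and Slit2 from 476 to 1105, which brought both above Nrp1 (1257 and 917) in Rnf40-/- MEFs and Sema3c close to Plxnb2 (1358 and 1566).

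**Figure D5:**
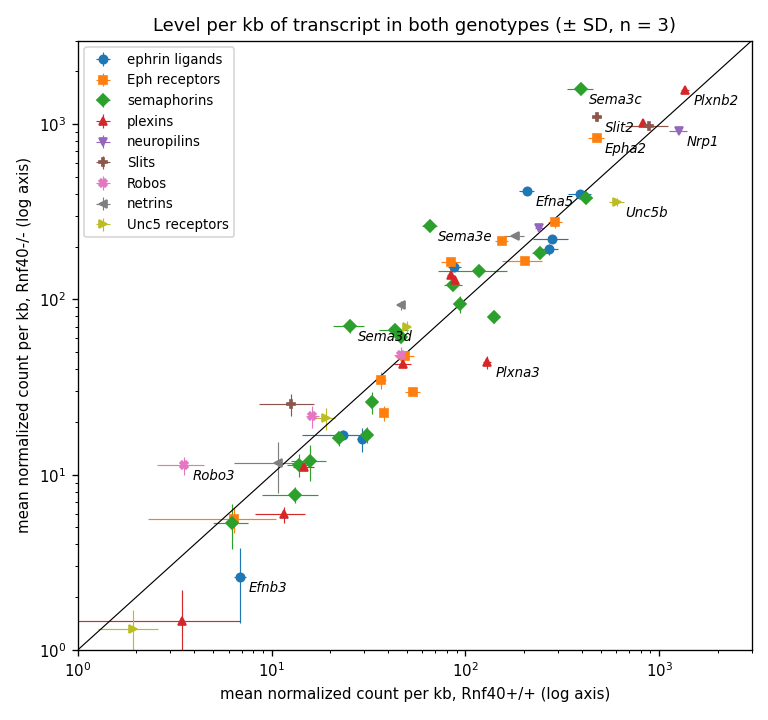
Mean normalized count per kb of transcript (both axes logarithmic) of the tested members in Rnf40+/+ (x axis) and Rnf40-/- MEFs (y axis), with the SD over 3 libraries as bars and the line of equality. Sema3c (394 and 1592) and Slit2 (476 and 1105) lie above the line at high levels, Plxna3 (129 and 43.9) and Unc5b (604 and 359.7) below it, and part of the bars of the lowest members runs off the axes.

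Other genes of the guidance pathways were taken from 4 lists outside the symbol rule, of which 111 genes were in the table and 101 were tested, with 39 higher (38.6%) and 33 lower (32.7%), beside 23.3% and 24.1% of all genes tested. Co-receptors and related receptors numbered 20 tested, with 9 higher and 5 lower, other ligands 12 with 3 and 3, cytoplasmic effectors 56 with 24 and 19, and heparan sulfate proteins and enzymes, on which Slit binding to Robo depends, 13 with 3 and 6. Vegfa, the vascular growth factor that shares Nrp1 with the semaphorins, had 2752, 2102 and 2186 normalized counts in Rnf40+/+ and 502, 505 and 464 in Rnf40-/- MEFs. It was the most strongly lowered gene of these lists, with a log2 fold change of -2.25 (SE 0.10, adjusted p = 1.66e-08). Rgma, a repulsive ligand of neogenin, was lower (-1.23, adjusted p = 6.34e-06), and Nell2, a ligand of Robo3, was higher along with that receptor (1.04, adjusted p = 0.000929). Ret, the receptor tyrosine kinase of GDNF ligands (1.07, adjusted p = 0.0147), and Grip1, a PDZ scaffold that binds B-class ephrins (1.71, adjusted p = 0.00524), were higher at low levels. Celsr3, an atypical cadherin (-1.09, adjusted p = 0.00846), and Fes, a kinase downstream of Plxna1 (-1.20, adjusted p = 0.000346), were lower.

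Of the 56 cytoplasmic effectors tested, 43 passed the test (76.8%, beside 47.4% of all genes tested), of which 24 were higher and 19 lower. The criteria of the study were met by 1 in each direction (Grip1 and Fes), or 3.57% beside 9.95% of all genes tested. Ngef, an exchange factor that binds Epha4 (0.85, adjusted p = 0.0288), Vav3, an exchange factor recruited by Eph receptors (0.80, adjusted p = 0.00686), and Adam10, a protease that cleaves ephrins (0.60, adjusted p = 8.2e-06), were higher. Abl2 (0.53, adjusted p = 7.2e-05) and Enah (0.42, adjusted p = 0.00029), a kinase and an actin regulator linked to Robo signaling, were higher too. Mical1 (-0.93, adjusted p = 3.5e-06), the oxidoreductase that disassembles actin downstream of plexin A, Limk1 (-0.53, adjusted p = 0.0032), Limk2 (-0.71, adjusted p = 9.9e-06) and their substrate cofilin (Cfl1, -0.49, adjusted p = 0.00041) were lower. Of the 5 collapsin response mediators, a family that relays Sema3a signals, Crmp1 (-0.69, adjusted p = 0.00031), Dpysl3 (-0.70, adjusted p = 0.0097) and Dpysl4 (-0.41, adjusted p = 0.037) were lower. Dpysl3 varied from 2599 to 5390 normalized counts among the Rnf40+/+ libraries, with the highest value in library 1. Dpysl2 was lower by little and with overlap between the genotypes (-0.22, adjusted p = 0.0495), and Dpysl5 had a log2 fold change of 0.53 without passing the test (adjusted p = 0.121). The genes of this paragraph were picked from the list after their values were seen.

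The members span long stretches of the genome. The 60 tested had a median span of 62.8 kb from start to end, against 23.5 kb over the 13965 tested genes with a position. Of 28 members longer than 100 kb, 14 were higher and 4 lower, and of the 32 shorter ones 8 were higher and 10 lower. Over all tested genes the same split held in direction, with 33.5% higher and 18.0% lower above 100 kb and 22.7% and 27.4% below. Spearman's correlation between span and log2 fold change was 0.25 over the members and 0.20 over all genes, as a description across genes, which share the same 6 libraries. Sema3c (156 kb), Sema3d (206 kb), Sema3e (231 kb), Slit2 (323 kb) and Efna5 (277 kb) are among the long members, as are Sema3a (477 kb) and Slit3 (587 kb), which did not pass the test, while Plxna3 spans 15.6 kb and Efnb3 6.11 kb.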

How the data were processed

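Total RNA of 6 MEF libraries was prepared with a strand-specific kit. Reads were mapped by the authors to mm9 transcripts, and the authors deposited a table of DESeq-normalized signal per gene symbol, in which reads are divided by a size factor for each library. The submitters' processing notes name Bowtie2 (version 2.1.0) and DESeq (version 1.14.0), and the counting tool and its use of strand are not given in the sources used here. All deposited signal values were whole multiples of the smallest positive value of their library, which gave back the reads.

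Genes passing filterByExpr of edgeR (version 4.0.16) on these reads entered limma (version 3.58.1) as log2(normalized count + 1), with lmFit on genotype alone, a mean-variance trend in eBayes and Benjamini-Hochberg adjustment over 16378 genes. The added 1 understates the change of low genes. Exact permutation of 3 against 3 libraries cannot give a p below 0.1 and was not used. Levels per kb divide by the longest transcript of the symbol in the mm9 annotation. Intervals are limma's 95% intervals.

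The members and the lists of other guidance genes and markers were chosen with earlier results of these data known. Library values are given for members with an adjusted p under 0.05, an absolute log2 fold change of at least 1 and a mean above 15, and for the member with the highest level per kb in each family. Other members with a call are given by fold change. Ntn1, Sema4c and Sema7a were given library values after these were seen, and genes near the class 3 semaphorins and some cytoplasmic effectors were likewise chosen with values in view. The alternatives tried were DESeq2 size factors and its Wald test (version 1.42.0), TMM and upper-quartile normalization, the quasi-likelihood test of edgeR on the recovered reads, no filter, at least 10 reads in every library, pseudocounts of 0.1 and 10, a replicate block and each library left out. The fits were tested on simulated data. R (version 4.3.3) and Python (version 3.11.15) were used.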

Additional observations from a re-analysis of the deposited data

How the results depend on the processing

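Of the 36 members that passed the test, 31 passed it in the same direction under all 16 alternatives and 5 lost it under some (Efnb3, Plxnb2, Robo2, Sema4d and Sema6c), while 0 changed direction. The Wald test of DESeq2 took away the calls of Robo2, Sema4d and Sema6c (adjusted p = 0.0652, 0.0614 and 0.0783) and the lack of a filter those of Robo2 and Sema4d (adjusted p = 0.061 and 0.0753). By the criteria of the study, 22 members were higher and 17 lower with no minimum fold change, against 7 and 2 with it. For background, 8828 of the 16378 genes tested had an unadjusted p under 0.05 in limma, counted without the minimum mean. Of the 60 members tested, 39 did. The count of lower members was 1 with at least 10 reads in every library and 1 with a pseudocount of 10, as Efnb3 no longer met the criteria. It ranged from 1 to 3 when each library was left out. It was 1 without Rnf40+/+ library 1 and 3 without Rnf40-/- library 3, where Plxna4 (-1.01) was added. Efnb3 no longer met the minimum mean when any Rnf40+/+ library was left out. The count stayed at 2 without Rnf40+/+ library 2 only because Plxnb3 (-1.54) entered. Without Rnf40+/+ library 3 it stayed at 2 because Plxna4 (-1.10) entered.

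Of the members without a call, 8 changed sign under some alternative. Sema4b had log2 fold changes of 0.0014 with DESeq2 size factors, 0.00065 with TMM, 0.0071 in the Wald test and 0.0056 in the quasi-likelihood test. Leaving out each library gave log2 fold changes from -0.070 to 0.087 for Sema4b, from -0.023 to 0.14 for Efnb2, from -0.14 to 0.0099 for Epha1, from -0.39 to 0.44 for Epha5, from -0.076 to 0.069 for Epha7, from -0.15 to 0.43 for Ntn3, from -1.54 to 0.060 for Plxnb3 and from -0.026 to 0.11 for Robo1.

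Same-numbered libraries showed no shared deviation from their genotype means, with correlations of 0.012, 0.017 and 0.021. This cannot tell whether they came from the same embryo or culture, which the labels do not say. With the replicate number as a block, Efna4 (-0.32, adjusted p = 0.0356), Ephb3 (-0.25, adjusted p = 0.0458) and Sema6d (-0.34, adjusted p = 0.0477) also passed the threshold, and the block took no call away.

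With 3 libraries per genotype and 3 reads as the limit of detection, the 8 members not tested cannot be said to be absent. The median log2 fold change of all genes lay between -0.014 and 0.033 under every alternative. Deletion and 4-OHT exposure cannot be told apart, and neither can reads of genes that overlap.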
